A study of Mus musculus with 88 samples.

Results

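The data described here are the first hour of a lipopolysaccharide (LPS) response in RAW 264.7, an established macrophage line of the mouse. They comprise 6 of the 88 two-colour oligonucleotide arrays of the series, chosen as all arrays that set RNA of cells kept 1 h in LPS against RNA of cells kept 1 h in medium. The 6 arrays form 3 numbered sets, each a dye-swap pair whose members carried the LPS RNA in Cy5 on one array and in Cy3 on the other. The LPS cells received 100 ng/ml LPS with 100 pM of what the labels call lipid binding protein. The groups set beside them were LPS for 2 h and for 4 h at the same doses, LPS plus isoproterenol (ISO) for 1 h, LPS plus prostaglandin E2 (PGE2) for 1 h, 50 nM ISO for 1 h and 10 µM PGE2 for 1 h, each against medium of its own time and each of 3 sets except PGE2 at 1 h, which had 2. The labels name the binding protein for LPS alone and not for the combinations. All cells are of the same unmodified line, and the labels do not say that the sets were separate cultures, so p-values measure the spread between sets only, which may be technical.

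LPS is a glycolipid that coats Gram-negative bacteria. Lipopolysaccharide-binding protein and CD14 hand it to the receptor complex of Toll-like receptor 4 and MD-2, whose adaptors MyD88 and TRIF lead to the IκB kinases, the MAP kinases and the interferon regulatory factors. The first genes to respond in macrophages are read by transcription factors already present in the cell, among them NF-κB, SRF with its partners, AP-1 and CREB. Many of these early genes encode transcription factors, inhibitors of the same kinases and proteins that destroy short-lived mRNAs, while interferon-stimulated genes follow once interferon-β has been made.

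Each value below is a log2 ratio of LPS over medium, taken as the mean over a dye-swap pair and, where a gene had several probes, over its probes. The direction was not stated by the files and was taken from the dye labels. Over 14 genes known as LPS targets in macrophages the median ratio lay between 2.06 and 3.29 on each of the 6 arrays, with 11 or 12 of the 14 above 0. The table holds exact zeros for 23.3% to 30.8% of the probes of an array, and neither the labels nor the table define a zero. A gene at 0 on every array is called listed at 0, and no change is read from it. A ratio carries no level, so the cell type could not be checked against marker levels; 18 macrophage markers gave ratios, of which 3 were called lower and none higher. Those 3 were Fcgr3 at -0.46, Mpeg1 at -0.34 and Ctss at -0.27, and only the call of Fcgr3 held without each set in turn. Of 31 markers of other cell types, 1 was called, the T cell marker Cd4 at 0.14. Over all genes, 4.84% were called lower and 4.64% higher. In RNA of whole cultures, fewer cells of a kind and less RNA per cell cannot be told apart.

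Of 10518 genes tested, 997 (9.48%) passed an adjusted p of 0.05, with 488 (4.64%) higher and 509 (4.84%) lower in LPS. The 3 sets were not alike in this comparison, and set 1 stood apart. Over the 488 genes called higher the median was 0.53 in set 1, 0.23 in set 2 and 0.43 in set 3. Over the 509 genes called lower it was -0.63 in set 1, -0.15 in set 2 and -0.25 in set 3. Set 1 was the farthest of the 3 from 0 for 317 of the higher and 362 of the lower genes. Between the 2 arrays of a dye-swap pair the correlation across the probes other than 0 on all 6 arrays was 0.73 in set 1, 0.39 in set 2 and 0.67 in set 3. Arrays of different sets correlated at 0.50 to 0.77 with the LPS RNA in the same dye, and at 0.21 to 0.57 in the other dye. Set 2 and set 3 reached 0.77 in Cy5 and 0.73 in Cy3, so values depended on the dye as well as on the set. The cause was not tested. Without set 1, 393 genes were called, 229 higher and 164 lower. The calls that held without each set in turn were 177 of the higher and 92 of the lower genes, and counts given below as robust are of these. Fitted on the 3 sets alone, without the spread of the other groups, the data gave 5 calls, all higher.

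**Figure D1:**
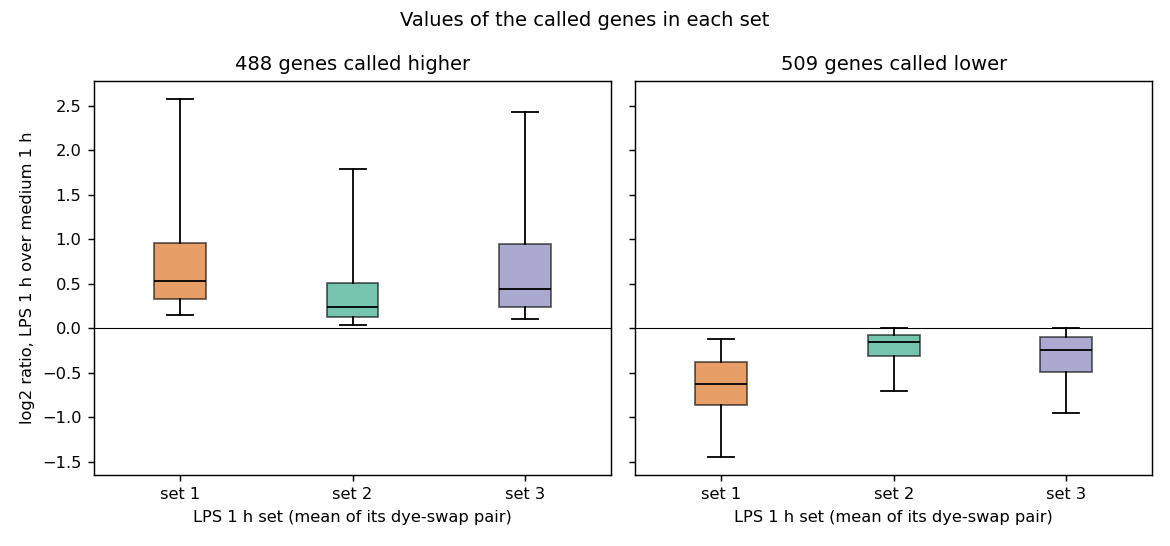
Log2 ratios of LPS over medium at 1 h (vertical axis) in each of the 3 sets, for the 488 genes called higher (left) and the 509 called lower (right). Boxes span the middle 50% of genes with the median as a line, and whiskers reach from the 5th to the 95th percentile. Set 1 has the medians farthest from 0 (0.53 and -0.63) and set 2 those nearest to 0 (0.23 and -0.15).

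Among the called genes, 89 had a set 1 value at least 0.5 from 0 while sets 2 and 3 both lay within 0.1 of 0, and 88 of these 89 were lower. For 88 of them both arrays of set 1 were below 0. Examples, picked after their values were seen, are Hdac1, a histone deacetylase, at -1.72, -0.06 and -0.04 in sets 1 to 3, Calm2, a calmodulin gene, at -1.47, -0.03 and -0.01, and the general transcription factor gene Tbp at -0.87, 0.03 and -0.03. The adjusted p of these 3 genes was 0.013, 0.014 and 0.023 with all sets and 1 in each case without set 1. The median of the 89 genes was -0.86 in set 1, and between -0.13 and 0.10 in each of the other 43 sets of the series. The values of LPS sets 2 and 3 at 1 h are part of that range by the way the genes were picked. The call also favours genes whose sets differ little within the other groups, since the fit takes the spread from all groups. The narrow range is therefore partly fixed by the pick. Why set 1 differs was not tested.

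As means over probes with zeros kept, the highest ratios of the comparison, Egr1 and Egr2, were of transcription factor genes. A single probe of Nfkbiz, described below, was higher than either mean, at 5.29. Of 27 immediate early factor genes tested, 15 rose and none fell, against 4.64% of all genes called higher, and 10 of the 15 calls were robust. The median of the list was 0.91, against 0 over all genes. Egr1, a zinc finger factor induced by growth signals, was at 5.95, 4.45 and 4.87 in sets 1 to 3, a mean 34.1-fold rise. Egr2, its paralog, was at 5.21, 3.83 and 4.61. All 6 arrays lay above 0 for both. Ier2, an immediate early gene of little known function, was at 3.51, 3.24 and 2.70. Maff, a small Maf factor, averaged 2.29 ± 0.46 and Fosl1, an AP-1 subunit, 1.77 ± 0.48 (SD, n = 3 sets). Myc, the growth-promoting factor, rose in all sets but over a wide range, at 3.94, 1.00 and 2.09.

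Among the AP-1 genes often used as markers of an early response, Fos was at 0.32, 0.91 and 0.10, above 0 on 6 of 6 arrays, and did not pass the test (adjusted p = 0.24). Jun rose, at 0.71, 1.33 and 1.42 (adjusted p = 0.00036). Junb was listed at 0 on all 6 arrays. Of the nuclear receptor genes Nr4a1, Nr4a2 and Nr4a3, Nr4a1 rose to 1.40, 1.13 and 1.77 (adjusted p = 0.0028), while Nr4a2 averaged -0.06 and Nr4a3 0.09, neither past the test. Atf3, a stress-induced repressor, was at 0.79, 1.86 and 1.92, and its call was lost without set 2 (adjusted p = 0.060) and without set 3 (adjusted p = 0.087).

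**Figure D2:**
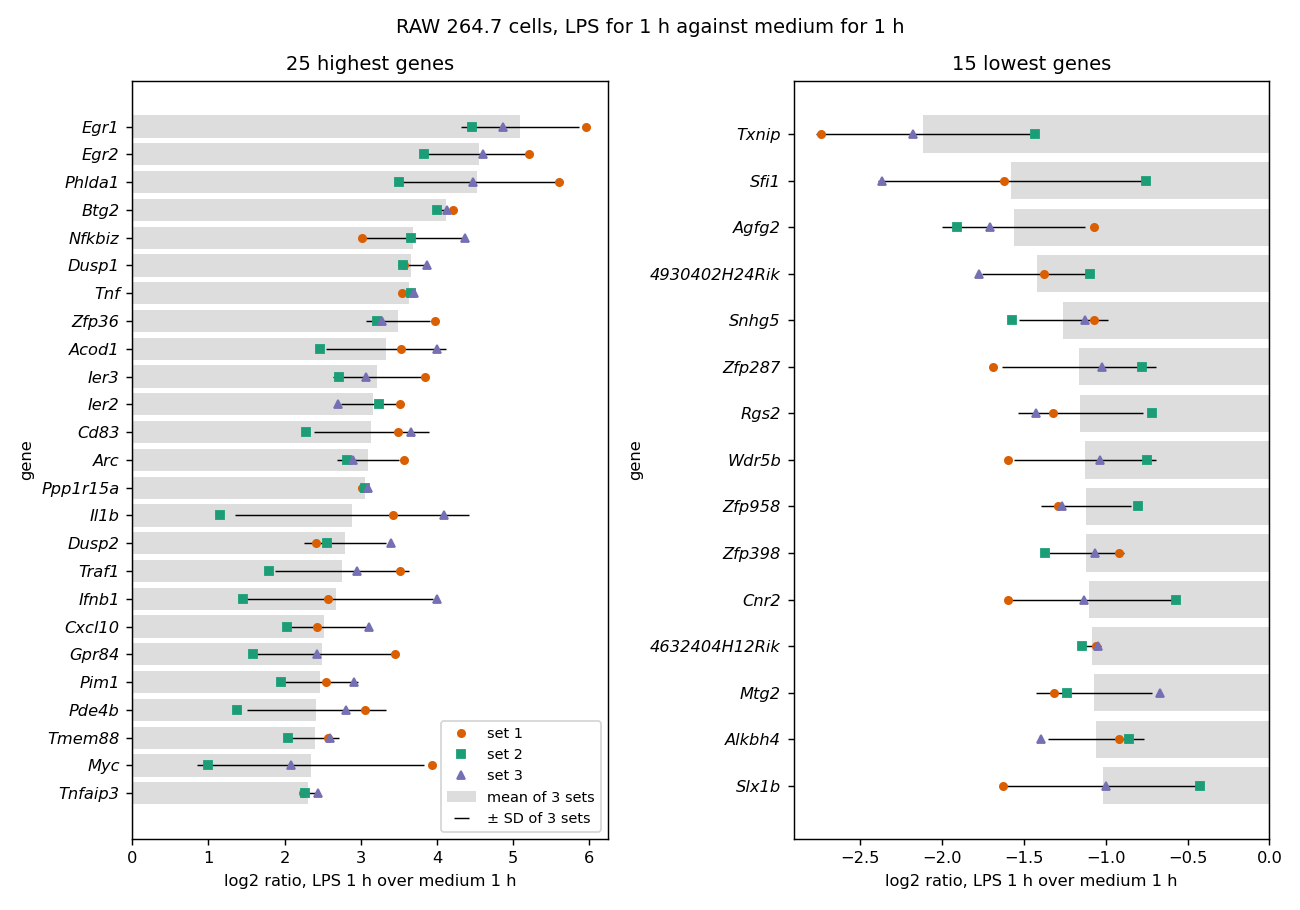
Log2 ratios of LPS over medium at 1 h (horizontal axis) for the 25 highest (left) and 15 lowest (right) genes among those called, of one sign in all sets and other than 0 on at least 4 arrays. Bars are means of 3 sets, lines ± SD, and symbols single sets. Tnf, Btg2 and Ppp1r15a have sets that nearly coincide, while the sets of Il1b span 1.16 to 4.09.

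Of 23 genes that restrain the kinases and growth signals, 10 rose and 1 fell, beside 4.64% and 4.84% of all genes. All 11 calls were robust. Dusp1 and Dusp2 encode phosphatases that switch off MAP kinases: Dusp1 was at 3.57, 3.56 and 3.86, and Dusp2 at 2.41, 2.55 and 3.40. The 3 probes of Dusp2 averaged 4.22, 2.41 and 1.73, the second of them at 0 in set 1, so the size of its rise depends on the probe. Btg2, an antiproliferative gene whose product recruits the deadenylases that shorten mRNA tails, was at 4.21, 4.01 and 4.13, and on single arrays between 3.75 and 4.43. Its sets differed by an SD of 0.10 around a 17.3-fold rise. Phlda1, a pleckstrin-homology protein, was at 5.60, 3.50 and 4.47, and Ier3, a survival gene, at 3.85, 2.72 and 3.07. The stress sensors Gadd45a and Gadd45b averaged 1.92 ± 0.83 and 1.70, and the phosphatases Dusp8 and Dusp16 averaged 1.33 and 0.64. The member that fell was Rgs2, which speeds the shut-off of G proteins, at -1.32, -0.72 and -1.43. Members without a call included Socs3 at 0.02, Socs1 at 0.59 and Dusp6 at -0.42.

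The NF-κB list had the largest share of calls of the 22 lists. Of its 19 genes 14 rose and none fell, beside 4.64% and 4.84% of all genes, and 8 calls were robust. The list's median was 0.83. Nfkbiz, which encodes the nuclear regulator IκBζ, was at 3.02, 3.66 and 4.36. Its 2 probes gave 5.29 on 6 arrays and 2.08 on 4 arrays, so the size of its rise depends on the probe, and with zeros taken as missing it averaged 4.69. Tnfaip3 encodes A20, a ubiquitin-editing enzyme that limits NF-κB signalling, and was at 2.24, 2.27 and 2.43. Traf1, an adaptor of TNF receptors, was at 3.52, 1.79 and 2.95. Nfkbia, the gene of the inhibitor IκBα, was at 1.05, 1.78 and 1.21 with 1 array listed at 0 in each of sets 1 and 3, and its call was lost without set 2 (adjusted p = 0.052). With zeros taken as missing it averaged 2.10 (adjusted p = 1.6e-10). Among the subunits, Relb averaged 1.06 ± 0.41, Rela 0.83 ± 0.20 and Nfkb2 0.86, while Rel averaged 0.53 and did not pass the test. Map3k8, the kinase that links the IκB kinases to ERK, was at 1.38, 1.13 and 1.62.

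Cytokine genes rose with large differences between sets. Of 25 cytokines and growth factors, 13 rose and none fell, beside 4.64% and 4.84% of all genes. Only 3 of the 13 calls were robust. Tnf was the steadiest, at 3.54, 3.66 and 3.70, a 12.4-fold mean rise, with the 6 arrays between 3.10 and 3.99. Il1b was at 3.42, 1.16 and 4.09, and set 2 was the lowest on each of its 3 probes. Il1a was at 0.70, 1.17 and 3.57, and Ifnb1, the interferon-β gene, at 2.57, 1.45 and 4.00; both calls were lost without set 3 (adjusted p = 0.35 and 0.10). One array of Il1a was listed at 0, and 1 of its 2 probes was other than 0 on 3 arrays; with zeros taken as missing Il1a averaged 2.65 (adjusted p = 8.8e-08). Il10, the gene of the anti-inflammatory interleukin, was at 1.66, -0.26 and 1.06, so the sets did not share a sign and its call was lost without set 1 (adjusted p = 0.68) and without set 3 (adjusted p = 0.16). Tnfsf9, the gene of the T cell ligand 4-1BBL, averaged 2.11 ± 0.84. Il6 averaged 0.47 ± 0.23 with an adjusted p of 0.64, and Il12b averaged 0.18 ± 0.13 with an adjusted p of 0.27.

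Of 18 chemokine genes 7 rose and none fell, with 4 robust calls, beside 4.64% of all genes called higher and 4.84% lower. Cxcl10 was at 2.42, 2.03 and 3.11, and Ccl4 at 1.53, 1.75 and 1.97 as the mean of 3 probes, 1 of which was other than 0 on 1 array; with zeros taken as missing it averaged 2.45. Ccl2 was at 2.32, 0.56 and 1.49, and Ccl3 at 0.83, 0.92 and 1.82, and these calls were lost without set 1 for Ccl2 (adjusted p = 0.065) and without set 3 for Ccl3 (adjusted p = 0.10). Cxcl2 was listed at 0 on 5 of 6 arrays, and no change is read from it. Among inflammatory effectors, 14 of 32 rose and none fell, with 10 robust calls, beside the same shares of all genes. Acod1, which makes itaconate, was at 3.52, 2.47 and 4.00. Cd83 and Cd40, surface proteins of activated antigen-presenting cells, averaged 3.14 ± 0.75 and 1.80 ± 1.13, the call of Cd40 being lost without set 1 (adjusted p = 0.059). Ptgs2, the inducible cyclooxygenase gene, was at 0.84, 0.81 and 1.89 and did not pass the test (adjusted p = 0.073). One array of its set 1 was listed at 0; with zeros taken as missing it averaged 1.46 (adjusted p = 7.3e-06), and with the set number as a block its adjusted p was 0.023. Nos2, the inducible nitric oxide synthase gene, was at 0.11, -0.01 and 0.03.

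**Figure D3:**
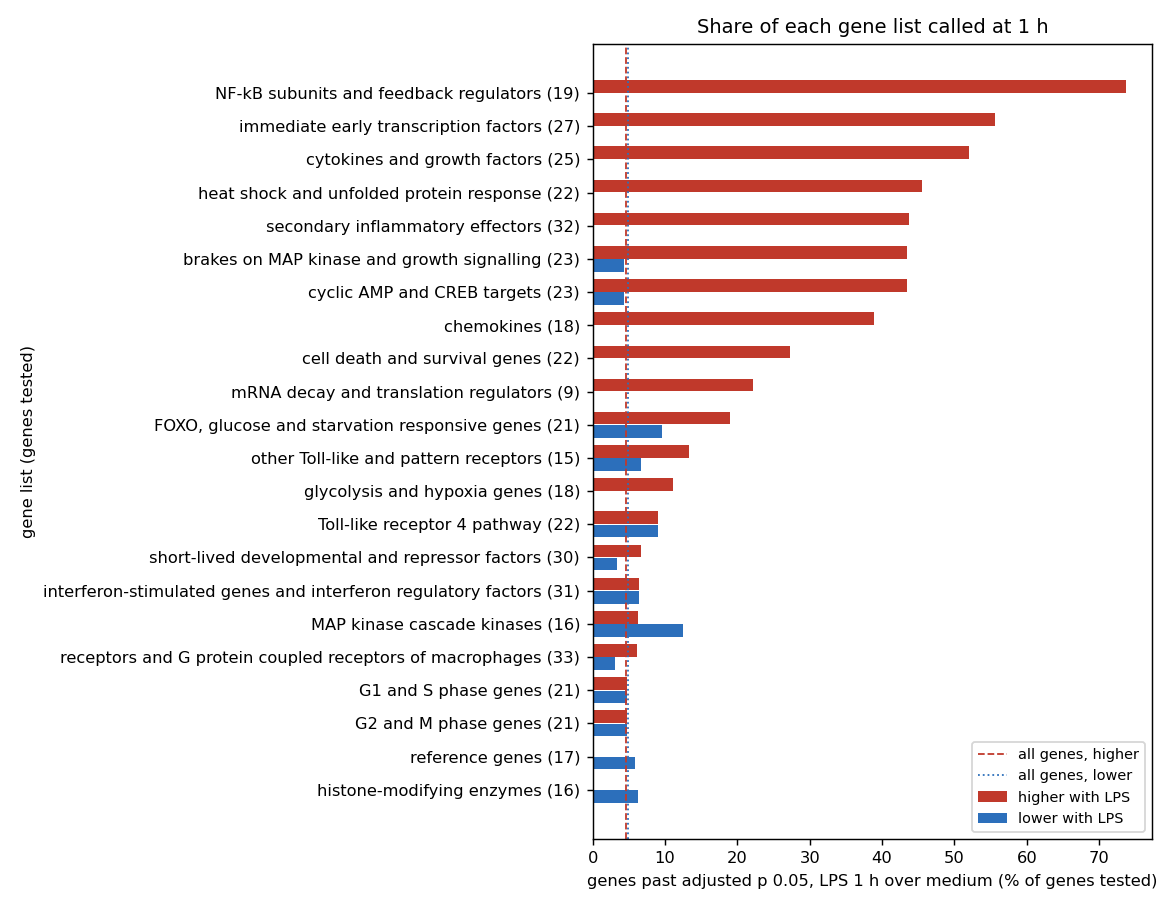
Share of the tested genes of each of 22 gene lists called higher (red) or lower (blue) in LPS at 1 h. The dashed and dotted lines mark the shares over all genes, 4.64% higher and 4.84% lower. The NF-κB list has the highest share called higher, and the reference and histone-modifying lists have none called higher.

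Of 22 genes of the Toll-like receptor 4 pathway, which senses LPS, 2 rose and 2 fell (18.2%, beside 9.48% of all genes), none of them robustly, and the median was 0.01. Tlr4 itself was lower, at -0.89, -0.24 and -0.48, below 0 on 6 of 6 arrays, with an adjusted p of 0.0003 that reached 0.065 without set 1. Of its 3 probes, 2 gave -0.77 and -0.84 and the third was at 0 on all 6 arrays. The members that rose were the adaptor gene Myd88, at 0.21 ± 0.09, and the chaperone gene Hspa5, at 0.31 ± 0.11. Hspa5 was placed on this list as a chaperone and is counted again below under protein folding stress. Tab1, of the TAK1 kinase complex, fell, at -0.05, -0.51 and -0.87, a call lost without set 3 (adjusted p = 0.20). Cd14, the LPS co-receptor gene, averaged 0.25 ± 0.21 and did not pass the test. Among 15 other pattern receptors, Clec4e, the mycobacterial glycolipid receptor Mincle, was at 2.26, 2.21 and 2.22. Tlr2, the receptor for bacterial lipoproteins, was at 1.17, 0.26 and 0.70, and its partner Tlr6 was lower at -1.16, -0.28 and -0.51, a call lost without set 1 (adjusted p = 0.52). Of 16 MAP kinase cascade genes 1 rose and 2 fell (18.75%, beside 9.48% of all genes). The lowest was Map3k14, the kinase of the alternative NF-κB pathway, at -0.99, -0.45 and -0.92.

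In the lists of this paragraph the share called was between 5.88% and 28.6%, beside 9.48% of all genes. Lists described further below are not part of this range. Of 33 receptor genes of macrophages 2 rose and 1 fell, and the highest was Gpr84, a receptor for medium-chain fatty acids, at 2.48. Of 21 FOXO and starvation responsive genes 4 rose and 2 fell (28.6%), of 30 short-lived repressors and developmental factors 2 rose and 1 fell, of 18 glycolysis and hypoxia genes 2 rose, and of 17 genes often used as references 1 fell (5.88%).

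Genes that shape mRNA decay, survival and stress were called at 1 h as well. Beside the counts of these lists, 4.64% of all genes were called higher and 4.84% lower. Of 9 mRNA decay genes, Zfp36, whose product tristetraprolin marks cytokine mRNAs for decay, was at 3.97, 3.22 and 3.28, and its relative Zfp36l1 at 1.44, 0.18 and 1.04, and the other 7 were not called. Of 22 cell death and survival genes 6 rose and none fell, 4 robustly. They included the survival genes Pim1 at 2.47 ± 0.49, Cflar, an inhibitor of caspase activation, at 1.85 ± 0.26, and Mcl1 at 0.65 ± 0.13, and the death-promoting Bcl2l11 at 1.32 ± 0.70. On the list of protein folding stress (22 genes of the heat shock and unfolded protein responses) 10 rose and none fell, 6 robustly. Ppp1r15a, which encodes the GADD34 subunit that restores translation after stress, was at 3.02, 3.05 and 3.10, and the factor genes Ddit3 and Atf4 averaged 1.10 ± 0.30 and 0.46 ± 0.04. The chaperone gene Dnajb1 averaged 0.67 ± 0.12, while the call of Hspa5, at 0.31, was lost without set 1 (adjusted p = 0.31) and without set 3 (adjusted p = 0.23).

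Over the called genes the median was 0.38 for those that rose and -0.35 for those that fell, while large changes were more often rises. By 2-fold or more, 92 genes were higher and 17 lower. Txnip, the glucose-responsive inhibitor of thioredoxin, was the lowest, at -2.74, -1.43 and -2.18, a 4.34-fold drop, with the 6 arrays between -3.04 and -1.40. Agfg2, an ArfGAP-related gene, was at -1.07, -1.91 and -1.71, and Sfi1, a centrosome gene, at -1.62, -0.75 and -2.37. The RNA host gene Snhg5 was at -1.07, -1.57 and -1.13, and Cnr2, the cannabinoid receptor gene of immune cells, at -1.60, -0.57 and -1.13. The uncharacterised gene 4632404H12Rik was at -1.06, -1.15 and -1.05. All 15 of the lowest genes were called without each set in turn, and all had 6 arrays below 0. They were picked among called genes of one sign in all sets, so this agreement is partly fixed by the pick. The edge of this group was not sharp: Slx1b, the last of the 15, averaged -1.018 and Napb, the next gene, -1.017.

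Among the lowest genes were 3 with Zfp symbols, given in the mouse to many zinc finger proteins, most of which are thought to bind DNA. Zfp287 was at -1.69, -0.78 and -1.02, Zfp958 at -1.29, -0.80 and -1.27, and Zfp398 at -0.92, -1.37 and -1.06. All genes with a Zfp number, these 3 included, were then counted; this group was chosen after its values were seen and left out Zfp36 and its 2 relatives, which bind RNA. Of 89 such genes 22 (24.7%) were called lower and 1 higher, beside 4.84% and 4.64% of all genes, and 14 of the 22 calls were robust. Their median was -0.11, and by set -0.19, -0.08 and -0.14. The called members ranged from Zfp287 to Zfp386 at -0.29, and the one that rose was Zfp593, at 0.92. In the other groups, Zfp genes called lower and higher numbered 21 and 4 in LPS at 2 h, 22 and 8 in LPS at 4 h, 23 and 1 in LPS plus ISO at 1 h, 23 and 2 in LPS plus PGE2 at 1 h, and 1 and 0 in ISO at 1 h. Beside these, 7.01% and 8.88% of all genes were called lower and higher in LPS at 2 h, and 16.4% and 14.3% in LPS at 4 h. The shares were 3.27% and 4.15% in LPS plus ISO (7.43% in all), 2.99% and 4.7% in LPS plus PGE2, and 0.19% and 0.713% in ISO. The 1 h groups may share medium RNA, which the labels do not say, so their counts may not be separate repeats.

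The 250 bases before the start of a gene were searched for known motifs in the promoter sequences of RefSeq (mouse build GRCm38.p6), which held 8381 of the 10518 genes by symbol. Both strands were read, and for the 1600 genes with several starts the first listed was used. The promoters printed first belong to 4 genes described above as higher at 1 h, picked by hand. The κB consensus is in capitals for Nfkbia, Cxcl10 and Ier3, and the CArG box, the site of SRF, for Zfp36. Whether NF-κB or SRF acts on these genes here was not tested.
Nfkbia, chr12:55492648-55492897, strand -: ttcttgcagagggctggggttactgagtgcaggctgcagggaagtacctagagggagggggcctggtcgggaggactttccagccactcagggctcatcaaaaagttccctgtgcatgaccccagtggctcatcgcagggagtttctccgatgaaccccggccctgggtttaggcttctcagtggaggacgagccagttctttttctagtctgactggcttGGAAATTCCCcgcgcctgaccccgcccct
Cxcl10, chr5:92348890-92349139, strand -: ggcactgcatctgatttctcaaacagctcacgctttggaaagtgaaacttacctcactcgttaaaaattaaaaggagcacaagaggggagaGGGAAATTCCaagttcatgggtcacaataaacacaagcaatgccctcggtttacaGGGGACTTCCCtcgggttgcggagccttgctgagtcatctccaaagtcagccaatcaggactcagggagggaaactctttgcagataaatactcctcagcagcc
Ier3, chr17:35821463-35821712, strand +: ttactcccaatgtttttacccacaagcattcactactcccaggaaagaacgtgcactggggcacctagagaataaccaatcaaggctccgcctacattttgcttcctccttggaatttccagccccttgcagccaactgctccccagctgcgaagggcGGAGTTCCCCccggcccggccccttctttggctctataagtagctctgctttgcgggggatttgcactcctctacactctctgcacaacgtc
Zfp36, chr7:28379229-28379478, strand -: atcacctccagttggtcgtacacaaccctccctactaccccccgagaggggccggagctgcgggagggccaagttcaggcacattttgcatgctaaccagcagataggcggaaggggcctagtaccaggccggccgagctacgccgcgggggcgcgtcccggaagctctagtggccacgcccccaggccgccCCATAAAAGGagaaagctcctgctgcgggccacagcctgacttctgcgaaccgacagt
In Nfkbia the κB match begins 29 bases before the start. In Ier3 it begins 92 bases before the start. Cxcl10 has 3 matches, of which 2 overlap. The CArG box of Zfp36 begins 58 bases before the start.

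The κB consensus lay in 11.9% of the promoters of genes called higher, 6.35% of those called lower and 8.29% of all. A looser κB pattern that contains it, GGG and CC with any 5 bases between, lay in 62.1%, 53.9% and 56.4%. The AP-1 motif TGANTCA lay in 7.99% of higher, 3.29% of lower and 6.06% of all promoters, and the CArG box in 1.55%, 0.471% and 1.38%. The cyclic AMP element TGACGTCA, the site of CREB and ATF factors, lay in 4.64% of higher, 1.18% of lower and 2.08% of all promoters, and in 6 of the 68 promoters of genes at least 2-fold higher. The E-box CACGTG was in 8.76%, 6.35% and 7.68%, the STAT motif TTCNNNGAA in 7.47%, 6.82% and 6.34%, and the EGR motif GCGTGGGCG in 1.80%, 0.706% and 0.883%. These shares are descriptions without a test, and a match does not show binding. The 3 strongest risers with TGACGTCA are shown with it in capitals.
Dusp1, chr17:26508473-26508722, strand -: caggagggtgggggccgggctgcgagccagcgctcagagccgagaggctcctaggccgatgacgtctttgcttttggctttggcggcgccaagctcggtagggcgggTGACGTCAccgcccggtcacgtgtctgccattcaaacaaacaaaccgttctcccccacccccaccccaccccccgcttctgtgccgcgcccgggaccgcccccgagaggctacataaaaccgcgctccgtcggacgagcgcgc
Btg2, chr1:134079156-134079405, strand -: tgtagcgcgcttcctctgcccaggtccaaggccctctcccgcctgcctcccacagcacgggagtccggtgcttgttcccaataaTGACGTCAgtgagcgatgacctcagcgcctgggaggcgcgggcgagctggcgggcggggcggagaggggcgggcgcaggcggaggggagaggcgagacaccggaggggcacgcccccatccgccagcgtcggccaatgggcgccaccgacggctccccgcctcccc
Ppp1r15a, chr7:45526269-45526518, strand -: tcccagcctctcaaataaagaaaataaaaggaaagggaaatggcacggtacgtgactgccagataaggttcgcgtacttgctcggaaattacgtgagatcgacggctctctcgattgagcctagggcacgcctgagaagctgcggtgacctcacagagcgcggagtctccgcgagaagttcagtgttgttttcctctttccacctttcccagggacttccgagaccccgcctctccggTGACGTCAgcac
The element begins 143 bases before the start in Dusp1, 166 in Btg2 and 12 in Ppp1r15a. The other 3 genes were Plk2 at 1.93, Dusp8 at 1.33 and the cyclin gene Ccnl1 at 1.00.

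Whether the first-hour response lasts was asked by setting LPS at 1 h beside LPS at 2 h and 4 h. Of the 488 genes higher at 1 h, 337 were called higher at 2 h (69.1% of the 1 h genes and 36.1% of the 934 genes higher at 2 h, which were 8.88% of all), and 281 at 4 h (57.6%, and 18.7% of the 1504 higher at 4 h, 14.3% of all). Of the 509 genes lower at 1 h, 221 were lower at 2 h (43.4%, and 30.0% of 737, 7.01% of all) and 220 at 4 h (43.2%, and 12.8% of 1724, 16.4% of all). The difference itself, 2 h minus 1 h, passed the test for 216 genes (2.05%), 1.29% of all genes with the higher and 0.761% with the lower ratio at 2 h. With the set number as a replicate block it passed for 346. The difference 4 h minus 1 h passed for 2091 genes (19.9%), 9.98% of all genes with the higher and 9.9% with the lower ratio at 4 h.

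Several immediate early and brake genes had their highest mean at 1 h, although over the whole brake list the median was 0.44 at 1 h, 0.81 at 2 h and 0.82 at 4 h. Btg2 averaged 4.12 ± 0.10 at 1 h, 2.30 ± 0.94 at 2 h and 0.82 ± 0.30 at 4 h. Dusp1 averaged 3.66 ± 0.17, 2.38 ± 0.87 and 0.47 ± 0.56, and its 4 h value differed from its 1 h value (adjusted p = 2.6e-06) while its 2 h value did not pass (adjusted p = 0.17) unless the set number was a block (adjusted p = 0.019). Egr2 averaged 4.55, 2.92 and 1.29 at the 3 times, and Jun averaged 1.15, -0.52 and 0.42. Zfp36 was lower at 2 h than at 1 h (adjusted p = 5.2e-05) but not at 4 h (adjusted p = 0.39), with means of 3.49, 1.67 and 3.14. Ddit3 averaged 1.10, 0.28 and 0.13.

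Other genes had like means at the 3 times or higher ones later. Tnf averaged 3.63 ± 0.08 at 1 h, 3.55 ± 0.32 at 2 h and 3.42 ± 0.51 at 4 h. Tnfaip3 averaged 2.31, 2.09 and 2.34, and Clec4e 2.23, 2.27 and 2.37, and none of these 3 genes passed the test of either difference. Il6 averaged 0.47, 2.12 and 4.64 at the 3 times, and Nos2 0.04, 0.18 and 1.97. Among 31 interferon-stimulated genes and interferon regulatory factors, 2 were called higher and 2 lower at 1 h, 18 higher and none lower at 2 h, and 30 higher and none lower at 4 h, with medians of 0.06, 0.63 and 2.63. The 2 higher at 1 h were Gbp3, at 0.49, 0.50 and 0.90 (adjusted p = 0.098 without set 1 and 0.21 without set 3), and Ifit3, whose 2 probes disagreed at 4.41 and -0.46. Of the 2 that were lower, Stat2 was at -0.89, -0.32 and -0.50 (adjusted p = 0.44 without set 1 and 0.079 without set 3), and Eif2ak2 lay among the genes carried by set 1 alone. Of 21 G1 and S phase genes 1 was higher and 1 lower at 1 h (9.52%, beside 9.48% of all genes), and 1 was higher and 18 lower at 4 h. Of 21 G2 and M phase genes 1 was higher and 1 lower at 1 h, and none higher and 14 lower at 4 h. Over all genes 4.64%, 8.88% and 14.3% were called higher at 1, 2 and 4 h, and 4.84%, 7.01% and 16.4% lower.

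Genes that were lower at 1 h followed several courses. Txnip averaged -2.12 ± 0.65 at 1 h, -2.01 ± 0.14 at 2 h and -0.32 ± 0.17 at 4 h. Sfi1 averaged -1.58, -0.82 and 0.69, and Zfp287 averaged -1.17, -0.16 and 0.50. Agfg2 averaged -1.56, -1.31 and -1.31. Tlr4 averaged -0.54, -0.93 and -0.58. Rgs2 averaged -1.16, -1.25 and 0.72. Among the 206 genes lower at 1 h that differed at 4 h, 154 had the higher ratio at 4 h and 52 the lower. Among the 208 genes higher at 1 h that differed at 4 h, 87 had the higher ratio at 4 h and 121 the lower. The genes were picked by their 1 h values, which are also subtracted in the difference. A lean back toward 0 at 4 h is therefore built into both splits, and no course is read from them.

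**Figure D4:**
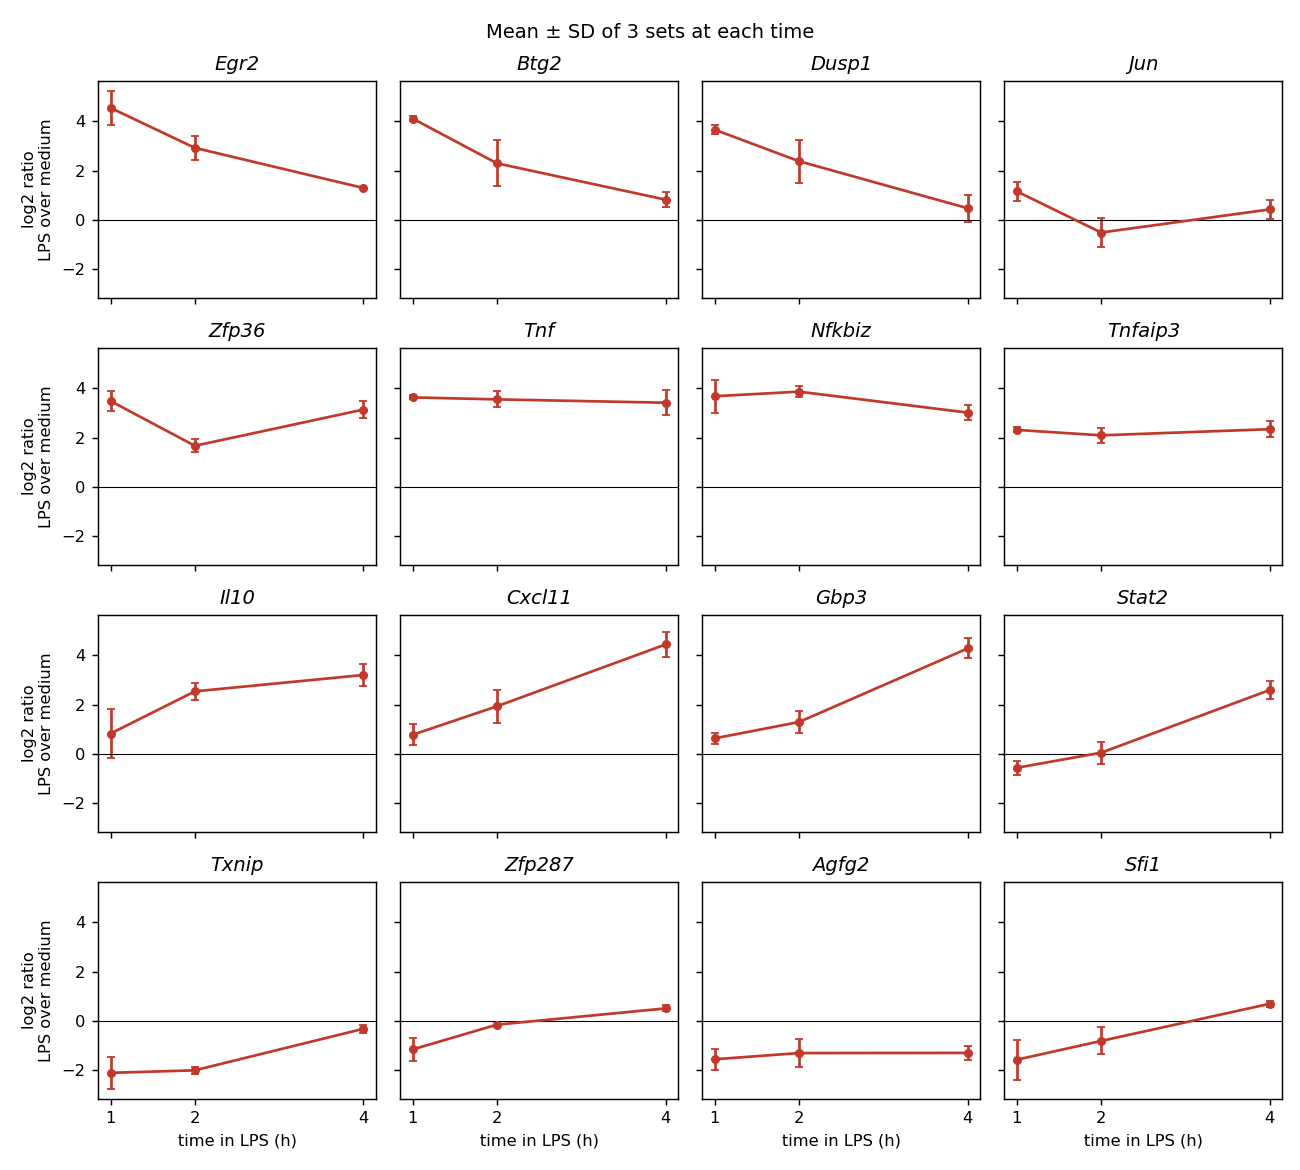
Log2 ratios of LPS over medium (vertical axis) at 1, 2 and 4 h for 16 genes named in the text, as mean ± SD of 3 sets at each time. Egr2, Btg2 and Dusp1 are highest at 1 h, Tnf and Tnfaip3 have like means at the 3 times, Cxcl11, Gbp3 and Stat2 are highest at 4 h, and Txnip is close to 0 again at 4 h.

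Whether the response differs from that to another ligand at the same hour was asked with ISO, an agonist of beta-adrenergic receptors, which raise cyclic AMP. LPS at 1 h and ISO at 1 h may have been set against the same medium RNA, which the labels do not say. The difference, LPS minus ISO, passed the test for 180 genes (1.71%), 129 (1.23%) with the higher and 51 (0.485%) with the lower ratio in LPS. Tnf averaged 3.63 ± 0.08 in LPS and -0.16 ± 0.64 in ISO, and Egr2 averaged 4.55 ± 0.69 in LPS and -0.03 in ISO. Plk2, a polo-like kinase gene, was at 2.23, 1.71 and 1.84 in LPS and averaged -1.72 in ISO. Myc averaged 2.34 in LPS and -1.15 in ISO, Atf3 1.52 and -1.10, and Ccl4 1.75 and -0.92. For these 4 genes the difference between LPS and ISO passed the test. The ISO values themselves did not pass the limma test against medium for Atf3 (SD 1.23, adjusted p = 0.23) or Ccl4 (SD 1.09, adjusted p = 0.22). With both agents together, LPS plus ISO averaged 0.17 for Plk2, 1.505 for Myc, 0.52 for Atf3 and 1.30 for Ccl4. The Atf3 value had an SD of 1.54 and did not pass the limma test against medium (adjusted p = 0.52). Whether LPS plus ISO differed from LPS was not tested.

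Of 23 cyclic AMP and CREB target genes 10 rose and 1 fell in LPS, beside 4.64% and 4.84% of all genes. In ISO 9 rose and 2 fell, beside 0.713% and 0.19% of all genes. Dusp1 averaged 3.66 in LPS and 1.71 in ISO, and this difference passed the test (adjusted p = 0.017), though not without every set (highest adjusted p = 0.069). Nr4a1 averaged 1.44 ± 0.32 in LPS, 3.85 ± 0.30 in LPS plus ISO and 2.43 ± 0.33 in ISO. Hilpda, a lipid droplet gene, averaged 1.78 in LPS and 1.81 in ISO, Pde4b, a cyclic AMP phosphodiesterase gene, 2.41 and 1.77, and Cebpb, an inflammatory transcription factor gene, 0.90 and 1.03. Rgs2 averaged -1.16 ± 0.38 in LPS and -1.40 ± 0.56 in ISO. The difference between LPS and ISO did not pass the test for Nr4a1, Hilpda, Pde4b, Cebpb or Rgs2, which does not show that they respond alike.

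**Figure D5:**
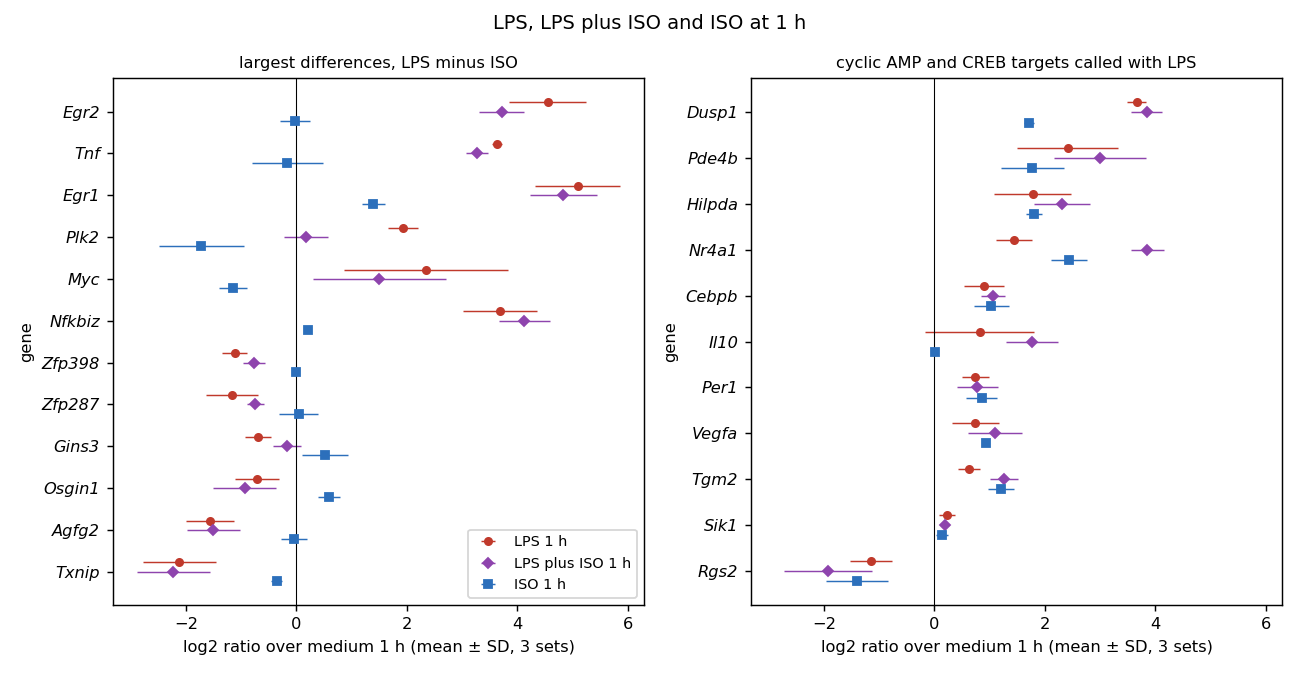
Log2 ratios over medium at 1 h (horizontal axis) in LPS, LPS plus ISO and ISO, as mean ± SD of 3 sets. Left, the 6 highest and 6 lowest differences of LPS minus ISO among genes called in LPS; right, the cyclic AMP and CREB targets called in LPS. Plk2 and Myc lie above 0 in LPS and below 0 in ISO, and Nr4a1 is highest in LPS plus ISO.

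In PGE2 at 1 h, with 2 sets, Plk2 averaged -1.88, Myc -1.24 and Nr4a1 1.67, and in LPS plus PGE2 they averaged 0.45, 1.82 and 3.41. Tnf averaged 3.36 in LPS plus PGE2 and -0.23 in PGE2, against 3.63 in LPS.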

How the data were processed

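Two-colour arrays of RAW 264.7 cells were used as the deposited table of the authors' processed values, which are log2 ratios by their range (largest absolute value 6.64, the log2 of 100); no label or header states the scale, background correction, normalization or sign convention. The median of each array was 0, and Cy5 over Cy3 was taken as the likely direction. Depth has no meaning for arrays, whose number limits the precision.

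Ratios were turned to LPS over medium, averaged over each dye-swap pair and then over probes of one symbol. Of 16281 probes, 13738 had 1 symbol, 52 several and 2491 none in the platform annotation; 478 of the first were 0 on all arrays, which left 13260 probes of 10518 genes, 2452 of them with several probes. Zeros were kept as values.

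One limma fit (limma 3.58.1, R 4.3.3, lmFit and eBayes) held 44 sets of 15 groups with 29 residual degrees of freedom and no covariate. Each group was tested against 0, and differences as contrasts, with Benjamini-Hochberg adjustment over all 10518 genes and a threshold of 0.05. Errors are SD over sets. Adjusted p-values are from this limma fit unless the sentence names a set left out, a block, zeros taken as missing or another probe choice, in which case limma was refitted that way. With 3 sets alone an exact two-sided sign-flip test could not go below 0.25. The fit was checked on simulated data with independent normal values and the same change in every LPS 1 h set. That check held no exact zeros and no set that stood apart, so it does not cover these features.

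Same-numbered sets of LPS at 1 h deviated together with LPS plus ISO at 1 h (correlations 0.43, 0.54 and 0.35) and LPS plus PGE2 at 1 h (0.38, 0.59 and 0.20). They also did so with ISO at 1 h (0.32, 0.21 and 0.25) and LPS at 2 h (0.15, 0.19 and 0.15). With LPS at 4 h they did not (-0.11, -0.19 and 0.03). The pairing was read from the data, since the labels give only the numbers.

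Genes named are the 25 highest and 15 lowest, up to 6 called members of each gene list with a few set members whatever their result, and the 6 highest and 6 lowest differences of each contrast. Any other gene named was chosen after its values were seen. Members and lists were chosen with earlier results of these data known. Alternatives changed the samples in the fit, the treatment of zeros, centring, dye, probe choice, block and sets.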

Additional observations from a re-analysis of the deposited data

Results flagged for a closer look

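The difference between LPS at 2 h and LPS at 1 h passed the test for 216 genes. Among genes called at 1 h, the highest differences, 2 h minus 1 h on the log2 scale, were Il10 1.72, Hbegf 1.36, Acod1 1.28, Peli1 1.20, Nfkbie 1.17 and Cxcl11 1.16. All 6 of these lost the call when 1 of the LPS 1 h sets was left out (highest adjusted p in limma 0.053 to 0.21). The lowest were Zfp36 -1.82, Btg2 -1.82, Ier2 -1.78, Jun -1.67, Ppp1r15a -1.65 and Egr2 -1.63, of which Egr2 lost the call without set 1 (adjusted p = 0.21) and without set 3 (adjusted p = 0.062).

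Between LPS at 4 h and LPS at 1 h, 2091 genes differed. The highest differences, 4 h minus 1 h, were Cxcl11 3.67, Gbp3 3.66, Stat2 3.16, Cd40 2.94, Ifit3 2.67 and Il1a 2.57, of which Il1a lost the call without set 1 (adjusted p = 0.061). The lowest were Btg2 -3.30, Egr2 -3.26, Dusp1 -3.19, Id3 -2.26 and Tcim -2.25. Acod1 is left out of these because it was listed at 0 on all arrays at 4 h.

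Between LPS and ISO at 1 h, 180 genes differed. The highest differences, LPS minus ISO, were Egr2 4.58, Tnf 3.80, Egr1 3.70, Plk2 3.64, Myc 3.49 and Nfkbiz 3.48. The lowest were Txnip -1.76, Agfg2 -1.52, Osgin1 -1.30, Gins3 -1.21, Zfp287 -1.21 and Zfp398 -1.11, of which Osgin1 lost the call without set 1 (adjusted p = 0.11) and without set 3 (adjusted p = 0.054).

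Probes without a symbol in the annotation were used in no comparison above. In a fit over all probes, 75 of them were higher and 96 lower with LPS at 1 h, of 1987 such probes. That was 8.61% of them, beside 8.98% of all probes.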

How the results depend on the processing

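The count of genes called for LPS against medium at 1 h was 997. It was 442 with only the 1 h groups in the fit, 5 with the LPS 1 h sets alone (1263 at an unadjusted p under 0.05), 2074 with the set number within each time as a replicate block (added after seeing the data), and 393 to 1342 without one set at a time. With the set number as a replicate block it was 1184, and of 122 genes followed at 1 h 121 stayed on their side of the threshold and 1, Ptgs2, gained a call. For LPS 2 h minus 1 h, with 216, it was 346 with the replicate block, 843 with the block within each time, 0 with only the 2 groups in the limma fit (993 at an unadjusted p under 0.05), and 140 to 311 without one LPS 1 h set. For LPS 4 h minus 1 h, with 2091, it was 932 with only the 2 groups. For LPS minus ISO, with 180, it was 4 with only the 2 groups, 491 with the block within each time, and 110 to 330 without one LPS 1 h set. The cause of these shifts was not tested. The smaller fits held fewer samples and took the spread from fewer groups. Ifit3 turned to -0.46 (adjusted p = 0.50) when the probe with the most values other than 0 stood for the gene. Of the same 122 genes, 27 lost their call without set 1, 2 without set 2 and 19 without set 3. These fits still took the spread from all groups. With only the LPS 1 h sets in the fit, 108 of the 122 lost their call. With only the 1 h groups, 28 lost it and 1 gained it. Few sets and the zeros limit what can be called.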

Other observations

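Of 7481 genes with a value on all 6 LPS 1 h arrays, 5 were listed at 0 on all 6 LPS 4 h arrays. Acod1, Ccl2 and Ccl3, which were at least 2-fold higher at 1 h, were among them, and no change is read from those zeros.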
